A study of Mus musculus with 6 samples.

Results

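The 9 genes described here encode proteins of the tight junction, and they were read as the rows named Cldn1, Cldn3, Cldn4, Cldn7, Ocln, Marveld3, F11r, Tjp1 and Tjp3 in a table of 10995 genes. All 9 were listed. RNA came from mammary tumor cells of FVB/NJ mice that carry the MMTV-PyVT transgene, in which a mammary tumor virus promoter drives the polyoma middle T oncogene in mammary epithelium, and both groups share that transgene. One group was labelled wild type for Nr4a1 and the other Nr4a1-/-, a knockout of this orphan nuclear receptor gene, with 3 libraries each from age-matched mice. The sources used here do not give the age, the disrupted part of the allele or whether the libraries came from separate animals, so p-values rest on a spread between libraries that may be technical.

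Tight junctions seal the space between neighbouring epithelial cells near their apical side. Claudins form the strands of the seal and set which ions pass. Occludin and its relative MarvelD3 lie in or beside the strands, the adhesion molecule JAM-A takes part in assembling them, and ZO proteins tie the strands to the actin cytoskeleton. In mammary epithelium these junctions close around lactation and keep milk components in the lumen.

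Total counts ranged from 21221467 to 21637113 in the libraries labelled wild type and from 19569173 to 24188875 in those labelled knockout. Nr4a1 itself had 358 to 711 counts with the wild type label and 612 to 847 with the knockout label, so the groups overlapped and the transcript was no lower with the knockout label. Counts over the whole gene do not show whether reads cover the disrupted part, and every direction below is between libraries as labelled. Wild type replicate 1 stood apart from the rest on the first principal component, at -51.3 against -2.22 to 28.8, and fold changes are therefore also given without it. The epithelial content markers Epcam, Cdh1, Krt8 and Krt18 were abundant in every library, with summed levels of 3565 to 4225 CPM (each count relative to a library total corrected by TMM scaling factors) under the wild type label and 2509 to 3354 CPM under the knockout label.

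Cldn4 and Cldn3 are neighbours on chromosome 5 of GRCm38. Cldn4 lies at 134945119 to 134946934 on the minus strand and Cldn3 at 134986214 to 134987472 on the plus strand. Their facing starts are 39279 bases apart, with 0 annotated genes wholly between them. The 250 bases before the RefSeq start are shown for this pair, for Cldn7, and for Tjp3, the scaffold gene with the greatest spread between libraries (RefSeq, GRCm38.p6, a C57BL/6J sequence and not that of the FVB/NJ strain). Cldn7 and Tjp3 have 2 RefSeq windows each, and the one farther upstream is printed. Capitals mark the words searched on both strands. These were CAGGTG, an E-box that Snail and Zeb repressors can bind, ACCNGTT, a Grainyhead-like word, and AAGGTCA, part of the element that NR4A receptors can bind as monomers.
Cldn4, chr5:134946935-134947184, minus strand: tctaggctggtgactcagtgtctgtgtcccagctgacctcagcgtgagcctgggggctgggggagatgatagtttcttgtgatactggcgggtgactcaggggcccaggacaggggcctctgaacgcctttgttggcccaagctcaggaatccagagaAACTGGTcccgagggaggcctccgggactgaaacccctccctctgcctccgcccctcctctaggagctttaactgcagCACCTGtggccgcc
Cldn3, chr5:134985964-134986213, plus strand: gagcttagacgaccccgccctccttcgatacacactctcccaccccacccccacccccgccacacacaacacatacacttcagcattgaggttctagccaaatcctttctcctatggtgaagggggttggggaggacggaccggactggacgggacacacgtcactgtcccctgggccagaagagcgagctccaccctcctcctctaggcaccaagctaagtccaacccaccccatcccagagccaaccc
Cldn7, chr11:69964529-69964778, plus strand: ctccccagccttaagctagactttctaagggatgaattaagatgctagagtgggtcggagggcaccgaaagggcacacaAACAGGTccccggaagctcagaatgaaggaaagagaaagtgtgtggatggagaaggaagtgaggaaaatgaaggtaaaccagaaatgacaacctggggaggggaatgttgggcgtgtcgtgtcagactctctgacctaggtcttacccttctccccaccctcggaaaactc
Tjp3, chr10:81291582-81291831, minus strand: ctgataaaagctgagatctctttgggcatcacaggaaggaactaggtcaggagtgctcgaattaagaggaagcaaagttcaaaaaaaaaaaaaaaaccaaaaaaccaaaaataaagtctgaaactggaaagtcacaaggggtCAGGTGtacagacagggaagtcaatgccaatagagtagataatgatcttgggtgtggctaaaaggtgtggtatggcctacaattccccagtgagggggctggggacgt

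RefSeq windows were matched for 8 of the 9 genes, all but Marveld3, and these 8 had 11 windows, some of which overlap. An E-box stood in 6 of the 11 windows, those of Cldn4, Cldn7, F11r, Ocln and Tjp3, against 17.2% of all 32851 windows of the same length. In Cldn4 it began 14 bases before the start. The window of Cldn7 that is not printed holds 2, and that of Tjp3 holds 1. The Grainyhead-like word stood in windows of Cldn4 and Cldn7, against 6.97% of all windows, and the NR4A word in 0 of 11, against 4.08%. The GC content of the 11 windows ranged from 43.2% to 69.2%, and the median over all windows was 52.4%. The shares over all windows were not matched for GC content. These matches describe letters in a short window and were not tied to binding.

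The other 7 genes lie on 7 chromosomes of GRCm38. Cldn1 is on chromosome 16 (26356642 to 26371841, minus strand), Cldn7 on chromosome 11 (69964779 to 69967885, plus strand) and Ocln on chromosome 13 (100496507 to 100552718, minus strand). Marveld3 is on chromosome 8 (109947914 to 109962203, minus strand) and F11r on chromosome 1 (171437535 to 171464603, plus strand). Tjp1 is on chromosome 7 (65296165 to 65527781, minus strand) and Tjp3 on chromosome 10 (81273207 to 81291581, minus strand), where 40 bases of its exons, 1.08%, overlap Apba3 on the opposite strand.

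The genes differed widely in level. Scaled to the length of their annotated exons in GENCODE M21, mean levels with the wild type label were 727 CPM per kb ± 377 (SD, n = 3) for Cldn4 and 250.1 CPM per kb ± 61.1 (SD, n = 3) for Cldn3. Next came Cldn7 at 82.3, F11r at 74.1 and Tjp1 at 38.7 CPM per kb. Tjp3, Cldn1 and Marveld3 stood at 19.9, 17.6 and 16.7 CPM per kb, and Ocln was lowest at 10.1 CPM per kb. Among neighbours in this order, Cldn7 and F11r, Tjp3 and Cldn1, and Cldn1 and Marveld3 overlapped between wild type libraries, and the other pairs did not. With the knockout label Cldn4 and Cldn3 again led, at 337 and 148 CPM per kb, and Ocln was again lowest, at 5.70 CPM per kb.

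All 9 genes had lower mean levels in the libraries labelled knockout, and in 6 of them, the 4 claudins, Ocln and Marveld3, every library labelled knockout stood below every library labelled wild type. Such separation in this direction was found for 9.05% of all genes. The median log2 fold change of the 9 genes was -0.76, against -0.0024 over all genes tested. None of the 9 passed the edgeR quasi-likelihood test, in which every one had an adjusted p of 0.574. That test called 0 of the 10995 genes (0%), and at an unadjusted p under 0.05 it gave 6 of the 9 lower and 0 higher, against 4.17% and 3.7% of all genes. DESeq2 called 1 of the 9 lower, Cldn1, and 0 higher, against 0.355% and 0.582% of all genes, and limma-voom called 0. Without wild type replicate 1 the same 6 genes kept non-overlapping groups, against 12.3% of all genes, and the median moved to -0.49.

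**Figure D1:**
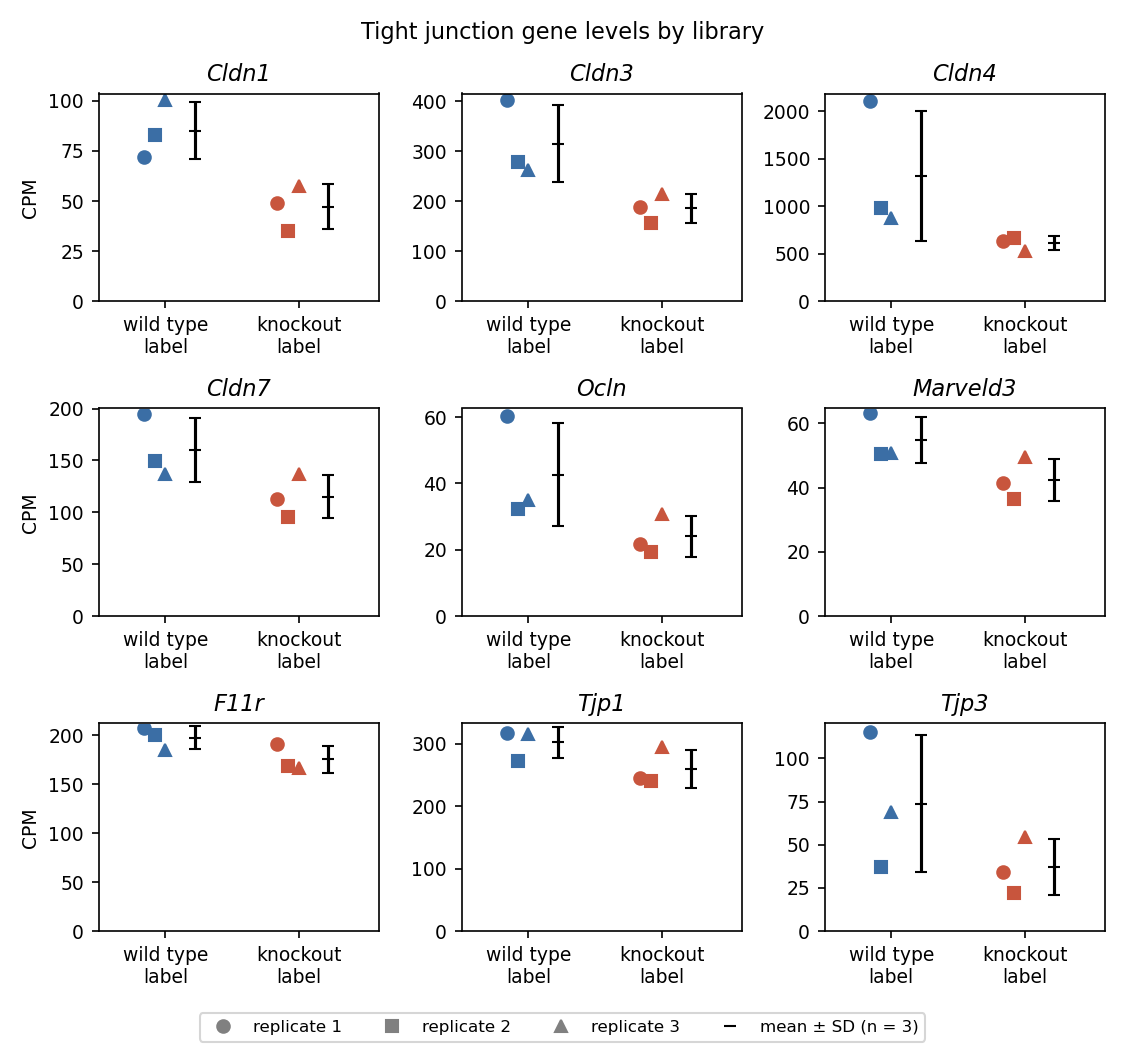
Levels of the 9 genes in each library, in CPM on linear axes that start at 0, with the wild type label in blue and the knockout label in red. Symbols stand for replicate numbers and black bars for the mean ± SD of 3 libraries. Wild type replicate 1 is the highest of the 6 libraries for 8 of the 9 genes, and Cldn1 is the exception.

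Cldn4, a claudin of tight mammary and other glandular epithelia, had the largest difference of the 9. It stood at 2109, 983 and 871 CPM in wild type replicates 1, 2 and 3 and at 634, 669.7 and 532 CPM in knockout replicates 1, 2 and 3. The groups did not overlap, and the spread within the wild type label came from replicate 1, which was 2.28 times the mean of the other two. The fitted log2 fold change was -1.11 (SE 0.36). Without wild type replicate 1 the fold change was -0.60 (SE 0.13), with a smaller error than in the full fit.

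Cldn3, which shares with Cldn4 the ability to bind a clostridial enterotoxin, stood at 403, 279 and 263 CPM with the wild type label and at 188, 156 and 214 CPM with the knockout label. Its lowest wild type library was above its highest knockout library. The fitted log2 fold change was -0.76 (SE 0.20), and it was -0.54 (SE 0.14) without wild type replicate 1. Its exons overlap those of Wbscr25 on the opposite strand over 40 bases, 3.18% of their length, and reads there cannot be assigned with certainty.

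Cldn1, the claudin whose loss opens the skin barrier in mice, differed from the other claudins in which library was high. It stood at 71.9, 83.1 and 100.4 CPM in wild type replicates 1, 2 and 3, so that replicate 1 was the lowest with that label. With the knockout label it stood at 49.0, 35.1 and 57.5 CPM, and the groups did not overlap. The fitted log2 fold change was -0.85 (SE 0.21). DESeq2 gave an adjusted p of 0.0366, and over the alternatives the adjusted p of Cldn1 ranged from 0.0366 to 0.889. Without wild type replicate 1 its log2 fold change was larger, at -0.96 (SE 0.22), whereas each of the other 8 genes moved towards 0.

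Cldn7, a claudin found along the sides of epithelial cells as well as at the junction, stood at 195, 149 and 136.9 CPM with the wild type label and at 113, 95.6 and 136.6 CPM with the knockout label. The third libraries of both groups were almost level, and with scaling by library size alone only 5 of the 9 genes kept non-overlapping groups, against 7.71% of all genes. The fitted log2 fold change was -0.48 (SE 0.18), and -0.31 (SE 0.16) without wild type replicate 1.

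The other membrane proteins were split. Ocln, which encodes occludin, stood at 60.5, 32.3 and 35.2 CPM with the wild type label and at 21.9, 19.4 and 30.9 CPM with the knockout label. Knockout replicate 3 came close to the lower wild type libraries without reaching them. Its log2 fold change was -0.83 (SE 0.30), and -0.49 (SE 0.21) without wild type replicate 1.

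Marveld3, which encodes a relative of occludin with the same kind of membrane domain, stood at 63.2, 50.6 and 50.7 CPM and at 41.5, 36.4 and 49.5 CPM. Here too the third knockout library was just under the lower wild type libraries. The fitted log2 fold change was -0.37 (SE 0.15), and -0.25 (SE 0.14) without wild type replicate 1. F11r, which encodes JAM-A, differed least. It stood at 208, 200.3 and 184 CPM with the wild type label and at 191, 169 and 166 CPM with the knockout label. Knockout replicate 1 lay above wild type replicate 3, and the log2 fold change was -0.17 (SE 0.087), or -0.14 (SE 0.089) without wild type replicate 1.

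Of the scaffolds, Tjp1, which encodes ZO-1 and is also made by cells outside epithelia, stood at 318, 273 and 315 CPM with the wild type label and at 245, 239.6 and 295 CPM with the knockout label. Its groups overlapped, since knockout replicate 3 exceeded wild type replicate 2, and its log2 fold change was -0.22 (SE 0.11), or -0.18 (SE 0.12) without wild type replicate 1. Tjp3, which encodes ZO-3, a scaffold largely limited to epithelia, stood at 115, 36.9 and 69.3 CPM and at 34.3, 22.3 and 54.3 CPM. Its highest library was 5.19 times its lowest, the widest range of the 9 genes, where that of F11r was 1.25 times. Its log2 fold change of -1.0 had an SE of 0.50, and it was -0.52 (SE 0.44) without wild type replicate 1.

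**Figure D2:**
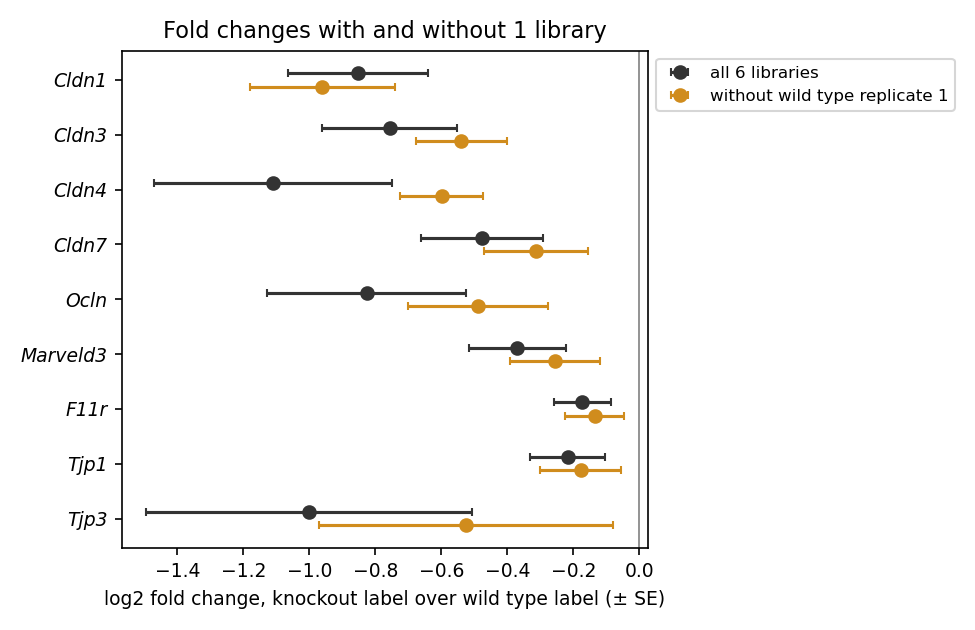
Log2 fold changes of the knockout label over the wild type label from edgeR, with bars of ± 1 SE, from all 6 libraries (black) and without wild type replicate 1 (orange). All 9 genes lie below 0 in both fits, and Cldn4 goes from -1.11 to -0.60 while Cldn1 goes from -0.85 to -0.96.

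The libraries were ordered alike for most of these genes. Wild type replicate 1 was the highest library for 8 of 9, and wild type replicate 3 for Cldn1. Knockout replicate 2 was the lowest for 7 of 9, and knockout replicate 3 for Cldn4 and F11r. The closest pair of profiles over the 6 libraries was that of Cldn7 and Marveld3, with a root mean square distance of 0.080 on the log2 CPM scale after centring each gene. Tjp1 was 0.13 from Marveld3, Cldn3 was 0.14 from Cldn7, and Ocln was 0.14 from Cldn3. Cldn1 and Cldn4 were farthest from each other among the claudins, at 0.61, and F11r and Tjp3 were the farthest pair of all, at 0.71. The distance was not scaled for the range of a gene, which was narrowest for F11r and widest for Tjp3. Outside the 9 genes, the smallest distances to their mean profile were those of Zbtb42 (0.054), Marveld2 (0.062), Nup210 (0.065), Hip1r (0.071), Epn3 (0.074), Samd10 (0.077), Anxa1 (0.078) and Plpp2 (0.078). Marveld2 encodes tricellulin, the protein of junctions where cells meet in corners. Transcripts of other genes contain 14.9% of the 31-base words of the Hip1r transcript, so part of its reads is uncertain.

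Marker levels of the epithelium and of other cell types also differed between libraries. The 4 epithelial content markers averaged 9.78 to 9.92 log2 CPM in the libraries labelled wild type and 9.22 to 9.59 in those labelled knockout, with a median log2 fold change of -0.43, or -0.44 without wild type replicate 1. With all 6 libraries the groups of each single marker of the 4 overlapped. Within a label the order of the 4-marker mean was not that of the mean of the 9 genes, but the single markers split. Epcam and Cdh1 each had the order of the mean of the 9 genes. Epcam stood at 724, 541 and 571 CPM with the wild type label and at 441, 388 and 576 CPM with the knockout label. Krt8 and Krt18 did not have that order, with Krt8 at 1106, 1694 and 1743 CPM and at 1368, 933 and 983 CPM. Wild type replicate 1 had the lowest epithelial marker mean with its label (9.78, against 9.83 and 9.92) but the highest mean of the 9 genes, and knockout replicate 1 had the highest epithelial marker mean with its label (9.59) whereas knockout replicate 3 had the highest mean of the 9 genes. Fibroblast markers, 8 of 10 listed and all 8 above 0, had summed levels of 2404 to 5791 CPM with the wild type label and 5159 to 9421 CPM with the knockout label, and these ranges overlapped, as did the groups of each of the 8 markers. Pericyte and smooth muscle markers, 7 of 8 listed, had 182 to 338 CPM and 375 to 623 CPM. Of these 7, 6 were above 0 and Notch3 below (-0.29). Groups did not overlap for 5, all higher, against 8.39% of all genes. Macrophage markers, 10 of 10 listed, had 817 to 953 CPM and 1160 to 1324 CPM. Of these 10, 9 were above 0 and Cd14 below (-0.50), and only the groups of Lyz2 did not overlap. Basal markers, 6 of 6 listed, had 1101 to 2838 CPM and 1998 to 2378 CPM, with 3 above 0, 3 below and overlapping groups in each. Of 8 endothelial and 8 lymphocyte markers 1 each was listed, Eng at 12.2 to 42.6 and 31.6 to 99.9 CPM, and Ptprc at 4.94 to 7.48 and 10.3 to 11.3 CPM. Of 6 adipocyte markers 0 were listed, and no listed marker was at 0 counts in any library. Wild type replicate 1, the library with the highest level for 8 of the 9 genes, had the lowest fibroblast and pericyte marker levels, and knockout replicate 2, with the lowest level for 7, had the highest. Between these libraries the fibroblast mean did not keep the reverse order of the 9 genes. Centred over the 6 libraries, it was 0.067 in knockout replicate 1, 0.29 in wild type replicate 2 and 0.37 in knockout replicate 3. The 9 genes stood there at -0.30, 0.089 and -0.091. The pericyte and smooth muscle mean kept the reverse order. The part of these marker differences in the lower tight junction levels was not tested, and in bulk RNA fewer epithelial cells and less RNA per epithelial cell cannot be told apart.

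**Figure D3:**
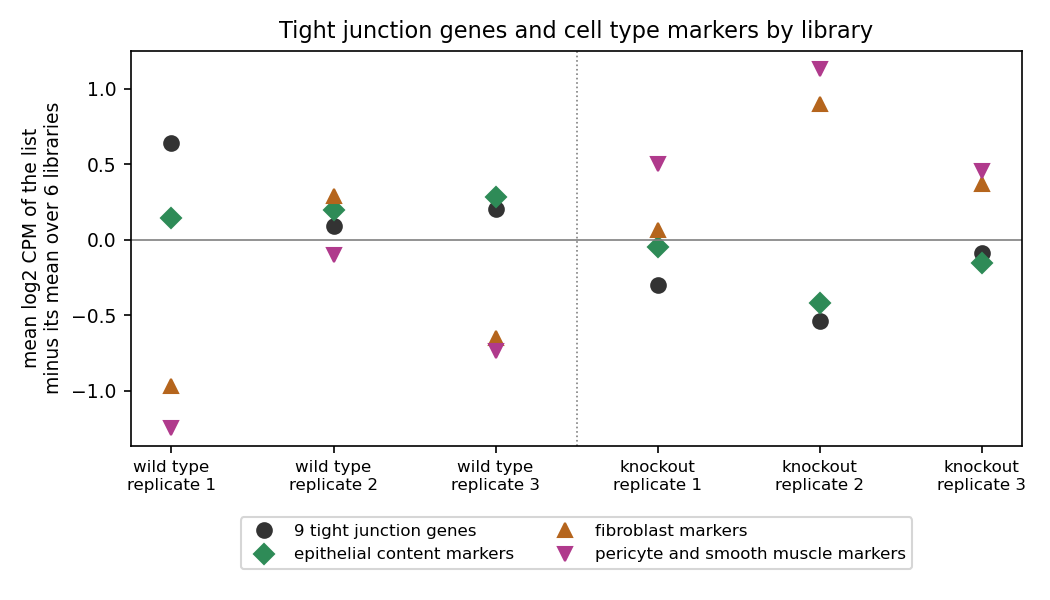
Mean log2 CPM of the 9 tight junction genes, 4 epithelial content markers, 8 fibroblast markers and 7 pericyte and smooth muscle markers in each library, each list centred on its mean over the 6 libraries. The tight junction genes are highest in wild type replicate 1 (0.64) and lowest in knockout replicate 2 (-0.54), where the fibroblast markers are lowest (-0.97) and highest (0.90). Knockout replicate 1 is below knockout replicate 3 both in fibroblast markers (0.067 against 0.37) and in tight junction genes (-0.30 against -0.091).

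Set against the epithelial content markers in place of the scaled library size, the median difference was smaller, although that of F11r went from -0.17 to 0.24. The mean log2 level of these markers was subtracted from each gene in each library, and the median difference between the labels was then -0.33 over the 9 genes, with 6 of 9 below 0. It was -0.45 against Cdh1 alone, with 7 of 9 below 0. Without wild type replicate 1 the median difference against the 4 markers was -0.070. In that setting Krt8 and Krt18 had log2 fold changes of -0.65 and -0.62, and Epcam and Cdh1 had -0.25 and -0.19. The difference against Cdh1 alone was not computed without that library. Cldn1 was the single gene of the 9 whose groups stayed apart against the 4 markers. Its relative log2 level was -3.61, -3.46 and -3.27 with the wild type label and -3.98, -4.09 and -3.64 with the knockout label, a difference of -0.45. Cldn4 had the largest relative difference, -0.59, but its groups overlapped, since wild type replicate 3 stood at -0.15 and knockout replicate 2 at 0.16. Against Cdh1 alone the groups of Cldn3 and Ocln did not overlap, with differences of -0.45 and -0.50, and those of Cldn1 did. Marveld3, F11r and Tjp1 stood at 0.040, 0.24 and 0.19 against the 4 markers, so their direction depended on the reference. These relative values are descriptions, and no test was made on them.

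**Figure D4:**
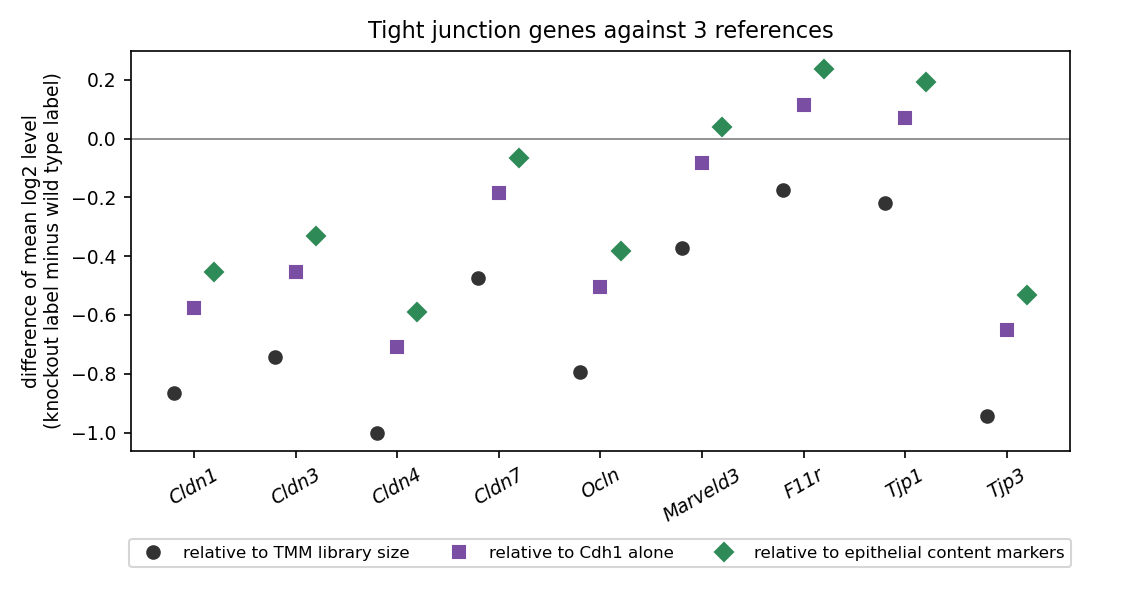
Difference of the mean log2 level (knockout label minus wild type label, n = 3 each) for each gene relative to the TMM-scaled library size (black circles), to Cdh1 (purple squares) and to the mean of 4 epithelial content markers (green diamonds). Cldn1, Cldn3, Cldn4, Ocln and Tjp3 lie at or below -0.33 with every reference, and F11r and Tjp1 lie above 0 with both epithelial references.

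The other tight junction genes looked up had a median closer to 0. Both the 9 genes and these lists were chosen with earlier results of these data known, so the contrast is a description and not a test. Of 65 further symbols, in which Mpp5 and Pals1 name the same gene, 40 were listed, of which 34 had a log2 fold change below 0 and 6 above, with a median of -0.17. The edgeR test called 0 of the 40 in either direction, and at an unadjusted p under 0.05 it gave 9 lower and 2 higher, against 4.17% and 3.7% of all genes. Groups did not overlap for 9 lower and 2 higher, against 9.05% and 8.39% of all genes. DESeq2 called 1 lower and 1 higher, the latter Esam, against 0.355% and 0.582% of all genes. Without wild type replicate 1 the median of the 40 was -0.097. By role it was then 0.12 for the other claudins, -0.049 for membrane proteins, -0.10 for scaffolds and -0.090 for polarity genes.

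Of the other membrane proteins, 8 of 11 were listed. Marveld2, tricellulin, stood at 57.9, 39.95 and 44.8 CPM with the wild type label and at 31.6, 27.5 and 39.7 CPM with the knockout label, with a log2 fold change of -0.53 (SE 0.19), or -0.36 (SE 0.17) without wild type replicate 1. Lsr, which recruits tricellulin to cell corners, had -0.35 (SE 0.11) and without that library -0.31, with 37.5% of its words also found elsewhere. Esam, an adhesion molecule of endothelial contacts, went the other way, at 2.28, 4.59 and 4.24 CPM against 11.3, 17.8 and 10.7 CPM, with a log2 fold change of 1.84 (SE 0.34, edgeR adjusted p = 0.574). Its adjusted p was 0.000312 in DESeq2, 0.579 in limma-voom and 0.45 with the replicate block, and its log2 fold change was 1.59 (SE 0.28) without wild type replicate 1. Marveld1 had 0.27 (SE 0.12), or 0.19 without it. Of 19 other claudins 2 were listed, Cldn12 with -0.15 (SE 0.10) and Cldn8 with -0.24 (SE 0.43), and both had overlapping groups. They had -0.098 and 0.34 without wild type replicate 1, so the direction of Cldn8 turned.

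Of the other scaffolds, 17 of 18 were listed, with a median of -0.18 and 15 below 0. Cgn, cingulin, which links ZO proteins to actin and myosin, stood at 223, 102 and 117 CPM with the wild type label and at 79.2, 68.5 and 90.6 CPM with the knockout label, with 24.6% of its words also found elsewhere. Its log2 fold change was -0.89 (SE 0.32), and -0.46 (SE 0.14) without wild type replicate 1, its highest library. Rab13, a vesicle GTPase that helps deliver junction proteins, had 0.32 (SE 0.10), and Magi1 had 0.049 (SE 0.095). Rab13 had 0.28 and Magi1 had -0.014 when wild type replicate 1 was left out, so that Magi1 turned direction.

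The polarity complexes, which place the junction along the cell's side, had 13 of 17 symbols listed and a median of -0.13, with 11 below 0. Llgl2, a lateral polarity protein, stood at 193, 83.6 and 80.9 CPM with the wild type label and at 57.7, 47.9 and 51.3 CPM with the knockout label. Its log2 fold change was -1.19 (SE 0.36), and that of Pard6b, an adaptor of atypical protein kinase C, was -0.94 (SE 0.26). In both genes the groups did not overlap, with wild type replicate 1 again highest, and without it the values were -0.65 (SE 0.095) for Llgl2 and -0.60 (SE 0.11) for Pard6b. Mpp5 and Pard6g had 0.036 (SE 0.057) and 0.066 (SE 0.18), which became 0.059 and -0.096 without wild type replicate 1.

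**Figure D5:**
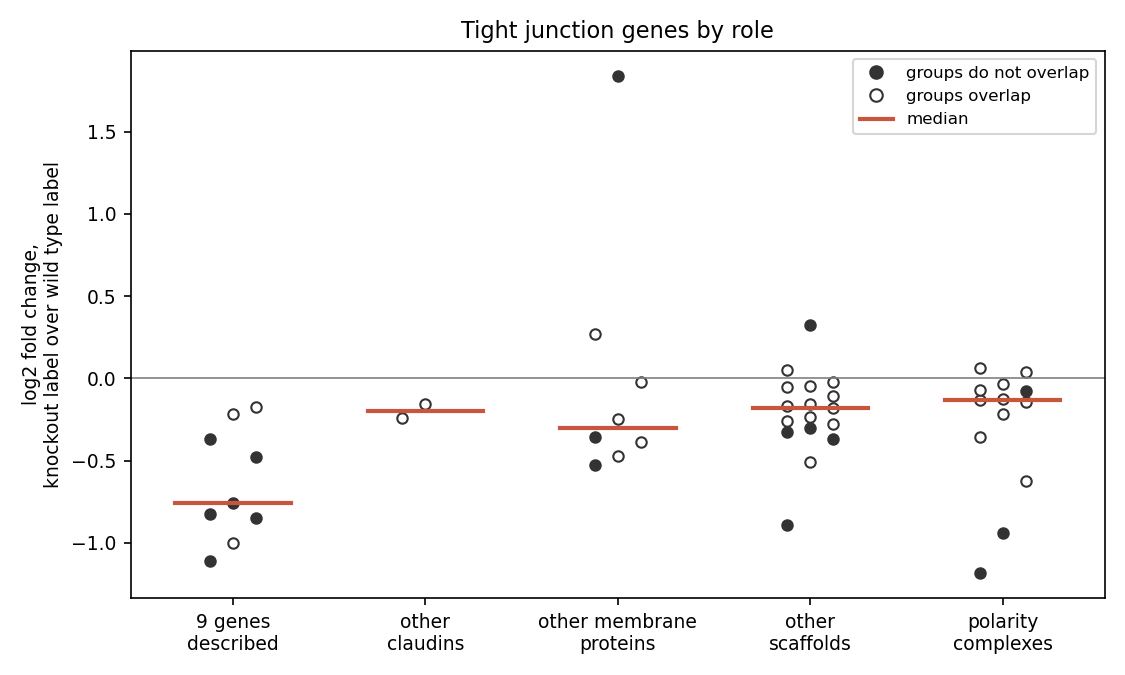
Log2 fold changes (knockout label over wild type label) of the 9 genes and of the 40 other listed tight junction genes by role. Each point is a gene, filled where the groups do not overlap, and red lines are medians, at -0.76 for the 9 genes and -0.20, -0.30, -0.18 and -0.13 for the other claudins, membrane proteins, scaffolds and polarity genes.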

How the data were processed

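Messenger RNA of mammary tumor cells was sequenced in 6 libraries. Per the labels' protocols, NEBNext Ultra libraries were read as paired ends. The authors deposited raw read counts per gene symbol, without normalization. CASAVA 1.8, HISAT2 and featureCounts appear in the submitters' processing notes, with the build GRCm38 (mm10). The sources used here do not give the annotation release, the strand setting or the rule that removed low genes (the highest count of each row was at least 133).

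Counts were fitted on all 10995 rows with edgeR 4.0.16 in R 4.3.3 (filterByExpr, which removed 0, TMM, robust quasi-likelihood F test, group as the only term) and adjusted by Benjamini-Hochberg at 0.05. The edgeR test gives no standard error, so each SE printed here is the absolute log2 fold change divided by the square root of the F statistic. Log2 CPM used a prior count of 2. DESeq2 1.42.0 and limma-voom (limma 3.58.1) were alternatives, as were the scaling, the filter, the replicate block and each library left out. The fit was also run on simulated counts in which no library was set apart as wild type replicate 1 was. That run therefore does not bear on the effect of that library. Exon lengths, overlaps and shared 31-base words came from GENCODE M21 (Python 3.11.15). All pairs of libraries differed beyond counting noise (chi-square per degree of freedom at least 23.3). The genes and lists were chosen with earlier results of these data known. Beside the 9 genes, each list gave its 2 genes of smallest unadjusted p per direction and the 8 nearest profiles were named. One gene that this rule names is not reported here. Other named genes were chosen after their values were seen.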

Additional observations from a re-analysis of the deposited data

How the results depend on the processing

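The direction of each of the 9 genes was the same in the 12 alternatives run for it. These were 2 other scalings, no filter, DESeq2, limma-voom, the replicate block and 6 fits that each left out 1 library. The filter removed 0 genes, so the fit without it repeated the main fit and could not differ. DESeq2 called 64 genes higher and 39 lower, 1 of the 9 genes and 2 of the 40 other tight junction genes, where edgeR called 0 in each case. The median log2 fold change of the 9 genes ranged from -0.87 to -0.49 with 1 library left out, the last without wild type replicate 1, and calls over all genes ranged from 0 to 1 higher and from 0 to 1 lower, the single calls without wild type replicate 2. The median difference relative to epithelial markers of -0.33 was -0.74 when the scaled library size was the reference, and it ranged from -0.41 to -0.070 with 1 library left out. With the replicate number as a block, edgeR called 0 genes and the median of the 9 genes was -0.74. The numbers were not taken as pairs, since deviations of same-numbered libraries correlated at -0.11, 0.35 and -0.26 and not every library correlated best with its own number. Leaving wild type replicate 1 out of the values of the other named genes was chosen after seeing the data. It reversed 4 of them, Cldn8 (0.34), Magi1 (-0.014), Pard6g (-0.096) and Nectin1 (-0.033), and the cause was not tested. The lowest count of the 9 genes in any library was 462.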

Other observations

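Most genes of the neighbouring junctions and of epithelial identity had log2 fold changes below 0, and none passed the edgeR test. Of 17 adherens junction and desmosome genes, all listed, 14 had a log2 fold change below 0, with a median of -0.23, and edgeR called 0. At an unadjusted p under 0.05 edgeR gave 4 lower and 0 higher, against 4.17% and 3.7% of all genes, and DESeq2 called 1 lower, Evpl, against 0.355%. Groups did not overlap for 5 of the 17, all lower, against 9.05%. The median was -0.19 without wild type replicate 1. Dsc2, a desmosomal cadherin, stood at a mean of 35.5 CPM (SD 2.48) over 3 wild type libraries, against 23.6 CPM (SD 4.74) over 3 knockout libraries. Evpl, envoplakin, stood at 85.7, 33.3 and 26.6 CPM with the wild type label and at 19.1, 13.1 and 15.3 CPM with the knockout label. Its log2 fold change was -1.62 (SE 0.48), and -0.92 (SE 0.19) without wild type replicate 1, while that of Dsc2 was -0.59 and -0.54. Nectin1 and Ctnnb1 had 0.31 (SE 0.37) and 0.049 (SE 0.11), or -0.033 and 0.016 without that library, with 19.5% of the words of Ctnnb1 found in other genes. Of 12 epithelial transcription and splicing factors 9 were listed, all 9 below 0 with a median of -0.46, or -0.25 without wild type replicate 1. EdgeR and DESeq2 called 0, 2 were lower at an unadjusted p under 0.05 (4.17% of all genes), and groups did not overlap for 1 of the 9 (9.05%). Elf3, an epithelial ETS factor, stood at 34.2, 20.1 and 16.4 CPM against 11.99, 10.2 and 14.9 CPM, and Esrp2 is an epithelial splicing regulator. Their log2 fold changes were -0.93 (SE 0.31) and -0.45 (SE 0.18), and -0.56 and -0.25 without wild type replicate 1.

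Repressors of epithelial junction genes had 6 of 7 listed, all 6 above 0 with a median of 0.68, or 0.32 without wild type replicate 1. EdgeR and DESeq2 called 0, and 1 was higher at an unadjusted p under 0.05 (3.7% of all genes). Zeb2 stood at 16.1, 37.5 and 22.6 CPM with the wild type label and at 41.3, 65.3 and 41.2 CPM with the knockout label, with a log2 fold change of 0.95 (SE 0.35), or 0.71 without wild type replicate 1, and Twist1 had 0.82 (SE 0.38), or 0.56 without it. All 8 listed fibroblast markers also had log2 fold changes above 0, with overlapping groups and 0 called by edgeR or DESeq2, and the part of stromal cells in these levels was not tested. Among claudin partners and proteases, 10 of 11 listed, 8 were below 0, with a median of -0.33, or -0.10 without wild type replicate 1. The lists share genes, since Epcam is counted here and Cdh1 among the adherens junction genes, and both are epithelial content markers. EdgeR called 0, with 2 lower and 1 higher at an unadjusted p under 0.05 (4.17% and 3.7% of all genes), and DESeq2 called 1 higher (0.582%). Spint2 had -0.38 (SE 0.12) and St14, matriptase, -0.46 (SE 0.17), and both had -0.34 without wild type replicate 1. Mylk, the kinase of myosin light chain in smooth muscle, stood at means of 16.1 CPM (SD 5.32, wild type label, n = 3) and 53.4 CPM (SD 13.7, knockout label, n = 3), with a log2 fold change of 1.73 (SE 0.32), or 1.48 without wild type replicate 1. Its adjusted p was 0.574 in edgeR and 8.12e-05 in DESeq2. Rock1 had 0.070 (SE 0.063), or 0.045 without that library.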
